A study of Mus musculus with 6 samples.

Results

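Transcripts of 10 regulators of spermatogonial stem and progenitor cells, Zbtb16, Gfra1, Ret, Id4, Nanos2, Nanos3, Etv5, Lin28a, Sall4 and Kit, were followed in whole testes of germ cell-specific Sel1L knockout mice and their heterozygous littermates. The genes were listed by name for their known role, by a rule that uses no measured value although earlier results of these data were known when the list was drawn up, and all 10 symbols were found among the 55536 Ensembl genes counted. Testis RNA came from 3 KOStra8 and 3 HETStra8 males, all 7 weeks of age, with 1 library per mouse. KOStra8 mice carried a floxed and a deleted Sel1L allele (Sel1L flox/Δ) and Stra8-Cre, a transgene in which the Stra8 promoter, active in male germ cells, drives an optimized Cre recombinase. HETStra8 mice are recorded with these libraries as Sel1L flox/Δ without mention of Cre, while the study's text also places Sel1L flox/+ mice with Stra8-Cre under that name. The genotype of each single HETStra8 mouse was not given, so both groups are known only to share a floxed allele. In the study's own staining the Cre left SEL1L protein in place in spermatogonia, the cells in which the genes described here are mainly used, and Sertoli cells also kept it.

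Spermatogonial stem cells sit on the wall of the seminiferous tubule and either renew themselves or give rise to progenitors, which in response to retinoic acid become differentiating, KIT-positive spermatogonia and then enter meiosis. Self-renewal depends on GDNF, a growth factor from Sertoli and peritubular myoid cells, which binds the co-receptor GFRA1 and signals through the receptor kinase RET to transcription factors such as ETV5 and ID4. PLZF (encoded by Zbtb16) and SALL4 are zinc finger transcription factors of undifferentiated spermatogonia, NANOS2 and NANOS3 are RNA-binding proteins that act on germ cell mRNAs, LIN28A blocks the maturation of let-7 microRNAs, and KIT is the receptor of Kit ligand on differentiating spermatogonia. These cells are a small fraction of an adult testis, whose RNA is mostly that of spermatocytes and spermatids.

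The libraries held between 28875108 and 36526695 counts, and levels are given as CPM, edgeR's library-size-scaled counts with TMM factors. Sel1l itself was at 46.4 ± 3.59 CPM against 22.1 ± 1.97 CPM in knockouts (SD, n = 3 mice each), with a log2 fold change of −1.07 (edgeR adjusted p = 0.00061). The HETStra8 mice differed more from each other than the KOStra8 mice did, with a chi-square of their counts of 13.5 to 27.1 per degree of freedom between pairs, against 8.62 to 10.3, so that no pair of libraries was alike within sampling noise. Fold changes of all tested genes followed GC content (Spearman rho −0.46 across 21457 genes, which are not independent replicates), and values corrected for GC content and transcript length are therefore given for each regulator. In these whole-testis libraries fewer cells of a type and less RNA per cell cannot be told apart.

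The genes lie on 10 different chromosomes, and RefSeq promoter sequences of GRCm38.p6 were at hand for 7 of them. The region before the start site is shown for the gene with the highest level per length, Id4, for the differentiation receptor Kit, and for the paralogs Nanos2 and Nanos3 at the low end, because they span the range of composition among the 7. Each sequence runs 5′ to 3′ on the strand of the gene, takes up to 250 bases before the RefSeq start and ends before the first base that GENCODE counts as exon. Capitals mark the GC box GGGCGG or its reverse complement CCGCCC.
Id4, chr13:48260866-48261115, plus strand: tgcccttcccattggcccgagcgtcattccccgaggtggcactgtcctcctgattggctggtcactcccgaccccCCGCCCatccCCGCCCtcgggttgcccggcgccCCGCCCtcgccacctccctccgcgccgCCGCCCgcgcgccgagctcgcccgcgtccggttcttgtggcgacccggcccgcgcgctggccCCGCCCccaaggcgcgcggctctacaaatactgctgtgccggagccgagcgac
Kit, chr5:75574737-75574915, plus strand: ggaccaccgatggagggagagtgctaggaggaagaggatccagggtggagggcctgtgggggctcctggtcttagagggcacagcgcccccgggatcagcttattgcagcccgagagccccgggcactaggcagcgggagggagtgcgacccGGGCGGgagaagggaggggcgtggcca
Nanos2, chr7:18987274-18987399, plus strand: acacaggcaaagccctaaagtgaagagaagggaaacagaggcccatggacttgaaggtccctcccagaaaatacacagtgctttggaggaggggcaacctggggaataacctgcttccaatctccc
Nanos3, chr8:84176553-84176802, minus strand: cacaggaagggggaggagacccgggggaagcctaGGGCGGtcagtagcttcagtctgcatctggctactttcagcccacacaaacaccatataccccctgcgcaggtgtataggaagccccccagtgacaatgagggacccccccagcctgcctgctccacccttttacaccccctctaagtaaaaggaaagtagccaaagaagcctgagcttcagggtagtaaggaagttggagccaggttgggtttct
In the full 250-base windows Id4 had 35 CpG dinucleotides, a GC content of 75.6% and 5 GC boxes, and Etv5, which ranked next in level, had 27 CpG, 71.2% and 3 GC boxes at the first of its start sites. At the second start site of Etv5 there were 18 CpG, 62% and 0 GC boxes, and which site is used here was not tested. Kit had 17 CpG and 1 GC box, Lin28a 7 CpG and no GC box, and Gfra1 10 CpG and no GC box. Nanos2 was the only one of the 7 without a CpG in this window and the only one with TATAA on either strand, which lies in the stretch that GENCODE counts as exon and is not printed. Nanos3 had 3 CpG and 1 GC box, and its window lies inside the span that GENCODE gives the gene. Over all 32851 promoter windows of this length the median was 6 CpG and a GC content of 52.4%, 32.7% held a GC box on either strand and 22.8% held TATAA on either strand. These matches describe the letters of the windows and not binding.

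Per kilobase of merged exons the levels of the 10 regulators spread widely, from 9.20 CPM per kb for Id4 to 0.0117 CPM per kb for Nanos2, both as means over 6 mice. Id4 lay between 8.52 and 9.87 CPM per kb in the 6 mice, Etv5 between 4.84 and 6.24 and Kit between 2.45 and 3.41, so that on this length the ranges of these genes did not touch. Zbtb16 followed with 0.826 to 1.12 CPM per kb, below every value of Kit. From there down the ranges of neighbours overlapped: Lin28a lay between 0.668 and 1.14, Gfra1 between 0.538 and 0.880, Sall4 between 0.287 and 0.628, Nanos3 between 0.193 and 0.474, and Ret between 0.128 and 0.377 CPM per kb. The receptor kinase Ret was thus below its co-receptor Gfra1 in all 6 testes by this measure. With the longest coding transcript as the length the means kept their order, but Kit moved to 5.04 CPM per kb, with a range of 4.16 to 5.79 that overlapped the 4.99 to 6.45 of Etv5, and exceeded Etv5 in 2 of 6 mice.

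**Figure D1:**
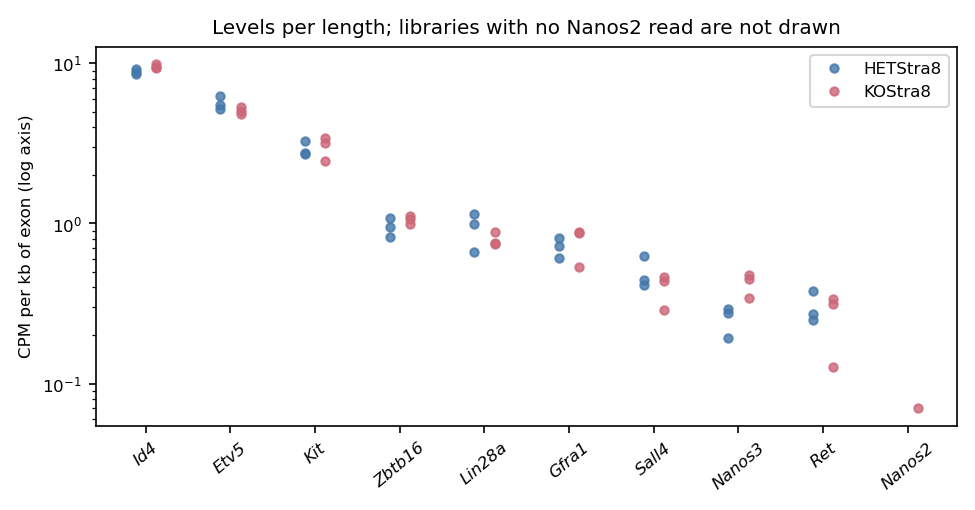
Level of each regulator per kilobase of merged exons (CPM per kb, log axis), 1 point per mouse, HETStra8 in blue and KOStra8 in red. On this length Id4, Etv5 and Kit stand apart from each other and above the rest, the ranges from Zbtb16 to Ret overlap between neighbours, and Nanos2 has a single point because 5 libraries held no read of it.

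No difference between KOStra8 and HETStra8 testes was detected for any of the regulators. Of the 10 genes 9 passed edgeR's filter on low counts and were tested within a fit of 21465 genes, and 0 of the 9 passed the study's cutoffs (adjusted p of 0.01, at least 2-fold), where 0.00932% of all tested genes did and 0.0186% passed that adjusted p at any fold. The study itself, whose methods name no test, reported many more genes at these cutoffs than the 2 that passed here. At an unadjusted p below 0.05 the count was also 0 of 9 with edgeR, DESeq2 and limma-voom, where edgeR had 12.3% of all tested genes, 7.13% higher and 5.12% lower in KOStra8. The adjusted p of edgeR's quasi-likelihood test ranged from 0.599 for Etv5 to 0.906 for Kit. The mean was higher in KOStra8 for 5 genes and lower for 4, with a median log2 fold change of 0.05 against −0.0094 over all tested genes. The 5 include Nanos3, which drops out if at least 10 counts are asked of every sample. Then 4 were higher and 4 lower, with a median of −0.047 against −0.012. With offsets for GC and length 4 of the 9 were higher and 5 lower, and the median was −0.017 against 0.0062. The median absolute log2 fold change was 0.15 against 0.16 over all tested genes. A p that misses the threshold does not show equal levels, and the 95% intervals say how large a difference remains possible: for 8 of the 9 genes the interval lay within a fold of 2 in either direction, while that of Nanos3 did not. All 3 KOStra8 mice lay above all 3 HETStra8 mice for Id4, and this was so for 9.33% of all tested genes. It was also so for Nanos3, which passed the filter through its KOStra8 mice alone and therefore says nothing beside that share. The reverse held for 0 of the 9 and for 8.43% of all tested genes, and 17.8% were free of overlap in either direction. With 3 animals a side the exact permutation p can be no smaller than 0.1.

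**Figure D2:**
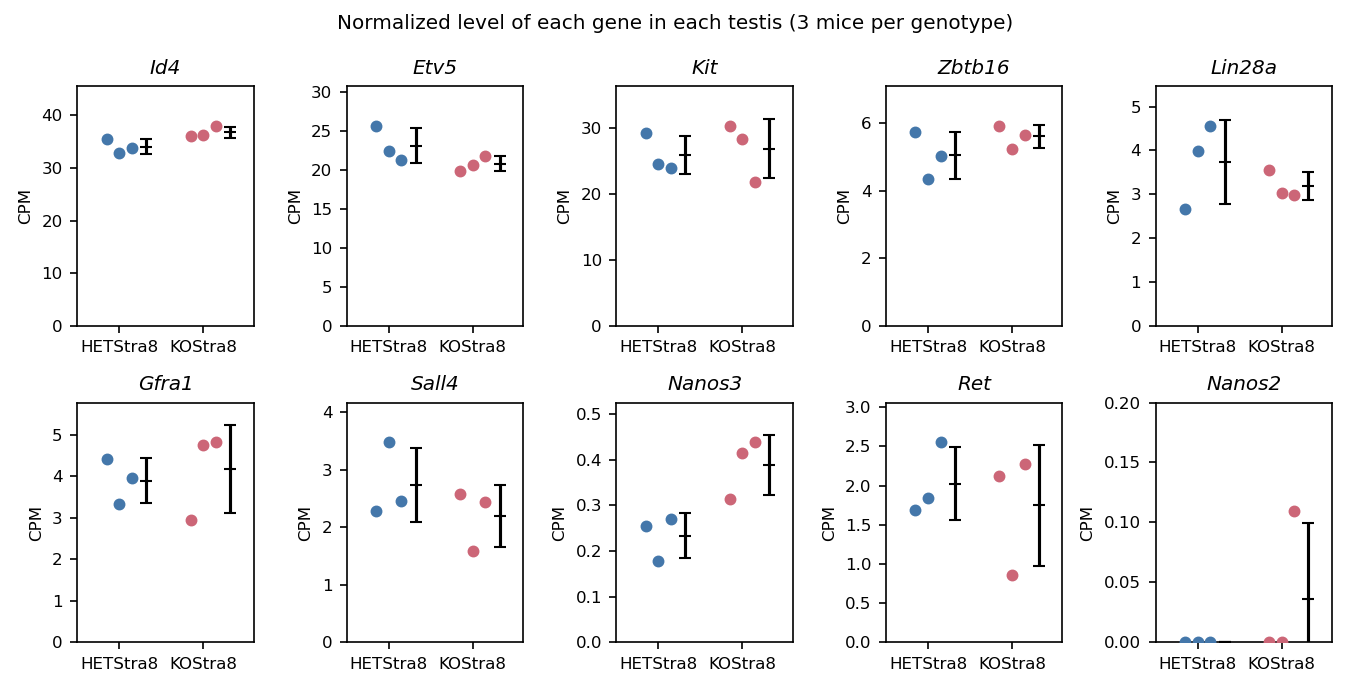
Normalized level (CPM, linear axis from 0, scaled per gene) of each regulator in each testis, with points for mice 1 to 3 of each genotype from left to right and the mean with SD (n = 3) beside them. The groups overlap in 7 of the 9 tested genes, the 3 KOStra8 points of Id4 and Nanos3 lie above the HETStra8 points, and Nanos2 was read in KOStra8 mouse 3 alone.

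**Figure D3:**
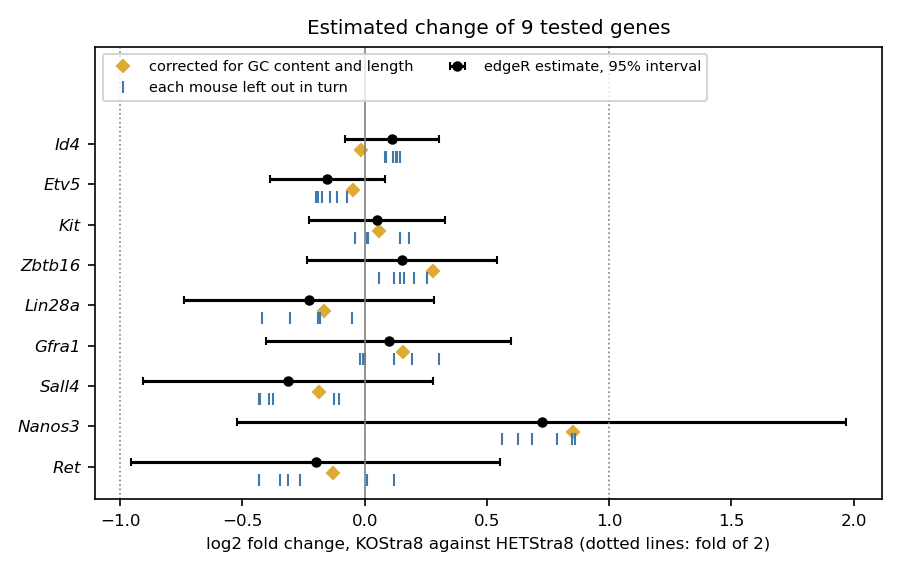
Log2 fold change of the 9 tested regulators in KOStra8 against HETStra8 testes with its 95% interval (black), with offsets for GC and length (yellow) and with each mouse left out in turn (blue ticks). Every interval includes 0, and only that of Nanos3 extends past a fold of 2 (dotted lines).

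The GDNF co-receptor Gfra1 (ENSMUSG00000025089, chromosome 19 from 58235604 to 58455909 of GRCm38) drew 139, 112 and 132 reads in the HETStra8 and 103, 138 and 176 in the KOStra8 animals, mice 1 to 3. In CPM this was 4.42, 3.33 and 3.96 against 2.95, 4.76 and 4.82, so that KOStra8 testes held both the lowest and the highest values. Its log2 fold change was 0.10 (95% interval −0.40 to 0.60, edgeR adjusted p = 0.897), 0.15 with offsets for GC and length, and −0.021 without KOStra8 mouse 3. An antisense gene, Gm16277, shares 416 exonic bases with Gfra1 and had between 169 and 249 counts per library, more than Gfra1 in each of them. Whether reads of the 2 strands were separated in the counting is not given in the sources used here. Transcripts on the opposite strand also share exonic bases with Id4, Lin28a and Sall4, but these had at most 5 counts in any library.

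Ret (ENSMUSG00000030110, chromosome 6 from 118151745 to 118197718), the signalling receptor, drew 53, 62 and 85 reads in the HETStra8 and 74, 25 and 83 in the KOStra8 animals, mice 1 to 3. The level of 0.863 CPM in KOStra8 mouse 2 stood below the other 5 mice, which lay between 1.68 and 2.55 CPM. The log2 difference was −0.20 (95% interval −0.96 to 0.56, edgeR adjusted p = 0.854), but it was 0.12 without KOStra8 mouse 2 and 0.0095 without HETStra8 mouse 3, so that its direction rested on single animals. The value with GC and length offsets was −0.13. The count ratio of Ret to Gfra1 was 0.381, 0.554 and 0.644 in HETStra8 and 0.718, 0.181 and 0.472 in KOStra8 mice 1 to 3. This ratio, which needs no scaling between libraries, overlapped between the groups (two-sided exact permutation p = 0.7, 3 mice per group). The ligand Gdnf was at 1.15 ± 0.351 CPM against 1.08 ± 0.380 CPM in knockouts (SD, n = 3 mice each), a log2 difference of −0.09 (edgeR adjusted p = 0.947).

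Of 21 tested genes of the GDNF receptor family and its signalling, 0 passed an adjusted p of 0.01 and 5 had an unadjusted p below 0.05. Higher in KOStra8 testes among these were the Src-family kinase Yes1, with a log2 fold change of 0.50, and Pik3ca, the catalytic subunit of PI3 kinase, with 0.22. Lower were the kinase Akt1 with −0.27, the adaptor Grb2 with −0.34, and Gfra4, the co-receptor for persephin, with −0.35. The adjusted p-values of these 5 genes lay between 0.256 and 0.343 in edgeR's test. Without HETStra8 mouse 3, 8 of the 21 genes had an unadjusted p below 0.05 and the smallest adjusted p was 0.0043, but the share over all tested genes also rose, from 12.3% to 20.2%. With offsets for GC and length and all 6 mice it was 1 of 21, against 7.51% of all tested genes.

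Etv5 (ENSMUSG00000013089, chromosome 16 from 22381309 to 22439719), an ETS transcription factor induced by GDNF and also expressed by Sertoli cells, drew 806, 755 and 709 reads in the HETStra8 and 694, 599 and 797 in the KOStra8 animals, mice 1 to 3. Levels were 25.6, 22.4 and 21.3 CPM against 19.8, 20.7 and 21.8 CPM, where KOStra8 mouse 3 lay above HETStra8 mouse 3 and the groups overlapped. With a log2 fold change of −0.15 (95% interval −0.39 to 0.08, edgeR adjusted p = 0.599), a loss of more than 0.39 on the log2 scale lay outside the interval. Corrected for GC content and length it was −0.05. The summed level of 11 Sertoli cell markers lay between 969 and 1162 CPM in HETStra8 and between 807 and 928 CPM in KOStra8 testes, lower in every KOStra8 mouse. Clu dominated that sum, with 884, 728 and 712 CPM in HETStra8 and 656, 684 and 575 CPM in KOStra8 mice 1 to 3. The part of Sertoli cells in the Etv5 value was not tested. The paralogs Etv1 and Etv4 had log2 differences of 0.0029 and 0.52, the latter from 36 and 53 counts over the 3 mice of each group. The GDNF-responsive transcription factors Bcl6b and Lhx1 had log2 differences of −0.10 and −0.28 (edgeR adjusted p = 0.887 and 0.734).

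Id4 (ENSMUSG00000021379, chromosome 13 from 48261228 to 48266026), an inhibitor of basic helix-loop-helix factors that marks the stem cell pool, was the most precisely measured of the 10 genes. It drew 1120, 1104 and 1126 reads in the HETStra8 and 1260, 1050 and 1388 in the KOStra8 animals, mice 1 to 3, that is 35.6, 32.8 and 33.8 CPM against 36.0, 36.2 and 38.0 CPM. Every KOStra8 value exceeded every HETStra8 value, by a margin of 36.0 against 35.6 CPM at the closest (two-sided exact permutation p = 0.1, the smallest that 3 mice against 3 allow). The log2 difference was 0.11 (SE 0.0903, 95% interval −0.08 to 0.30, edgeR adjusted p = 0.651). With offsets for GC and length it was −0.017, and the transcript of Id4, with a GC content of 42.6%, is the poorest in GC among the 10 genes. The interval thus places any change of whole-testis Id4 between 0.944-fold and 1.23-fold before that correction. Which cells its reads came from was not tested.

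Among the E proteins that ID factors bind, Tcf4 was at 24.9 ± 2.67 CPM against 33.6 ± 0.785 CPM in knockouts (SD, n = 3 mice each), a log2 difference of 0.43 with the smallest p among all genes of the pathway lists (unadjusted p = 0.00099, edgeR adjusted p = 0.142). Tcf12 was higher without overlap between the groups, which held for 9.33% of all tested genes, with a log2 fold change of 0.18. Tcf3 had one of −0.17 with overlap (edgeR adjusted p = 0.503 for Tcf12 and 0.588 for Tcf3). None of these reached the study's cutoff, but without HETStra8 mouse 3 the smallest adjusted p in this list of 6 was 0.0074. Without that mouse the genes past the cutoffs over all tested genes also rose, from 2 to 44. Under the GC and length offsets 0 of the 6 had an unadjusted p below 0.05, and the smallest adjusted p was 0.775.

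Zbtb16 (ENSMUSG00000066687, chromosome 9 from 48654297 to 48836222) drew 181, 147 and 168 reads in the HETStra8 and 207, 152 and 207 in the KOStra8 animals, mice 1 to 3. Its levels of 5.75, 4.36 and 5.04 CPM against 5.92, 5.25 and 5.66 CPM overlapped, and HETStra8 mouse 2 had the lowest of them. The log2 difference was 0.15 (95% interval −0.24 to 0.54, edgeR adjusted p = 0.770) and 0.28 after the GC and length correction. Of 7 genes for corepressors and the ubiquitin ligase subunit that work with PLZF, 3 had an unadjusted p below 0.05: Cul3 with a log2 fold change of 0.34, the corepressor Ncor1 with 0.23 and Sin3b with −0.23 (edgeR adjusted p = 0.243, 0.349 and 0.267). Over all tested genes 12.3% had such a p, and with offsets for GC and length 1 of the 7 did. Cul3 reached 437 ± 67.7 against 551 ± 40.4 CPM (SD, n = 3 mice each).

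Sall4 (ENSMUSG00000027547, chromosome 2 from 168748332 to 168767943) drew 72, 117 and 82 reads in the HETStra8 and 90, 46 and 89 in the KOStra8 animals, mice 1 to 3. The highest level, 3.47 CPM, was that of HETStra8 mouse 2 and the lowest, 1.59 CPM, that of KOStra8 mouse 2, while the other 4 mice lay between 2.29 and 2.57 CPM. Its log2 fold change was −0.31 (95% interval −0.91 to 0.28, edgeR adjusted p = 0.680), and without HETStra8 mouse 2 or KOStra8 mouse 2 it was −0.11 and −0.12. The value with GC and length offsets was −0.19. Of 11 genes of the NuRD complex, through which SALL4 represses transcription, 10 had a lower mean in KOStra8, and 5 with offsets for GC and length. The deacetylase Hdac2 had a log2 fold change of 0.25 and the histone chaperone Rbbp4 of −0.18, each with an unadjusted p below 0.05 (edgeR adjusted p = 0.371 and 0.379). The other 9 had larger p-values. Hdac2 and Rbbp4 are 18.2% of the list, where 12.3% of all tested genes had such a p. With offsets for GC and length 1 of the 11 had one, against 7.51% of all tested genes.

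Nanos2 (ENSMUSG00000051965, chromosome 7 from 18987400 to 18988962), which holds stem cells in the undifferentiated state, was near the limit of detection. No read was counted on it in 5 libraries and 4 reads were counted in KOStra8 mouse 3. A count of 0 allows a level of up to 0.0954 CPM in HETStra8 mouse 1, 0.0891 CPM in mouse 2 and 0.0899 CPM in mouse 3, and up to 0.0858 and 0.104 CPM in KOStra8 mice 1 and 2, if the limit is set at 3 counts, and the 4 reads amount to 0.109 CPM. Such limits cover counting error only. The antisense gene Gm45058 shares 766 exonic bases with Nanos2 and was also counted 4 times in that mouse and at most once in the others. Nanos2 did not pass the filter on low counts, and no fold change is given.

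Nanos3 (ENSMUSG00000056155, chromosome 8 from 84173731 to 84185217), a paralog active in progenitors and differentiating spermatogonia, drew 8, 6 and 9 reads in the HETStra8 and 11, 12 and 16 in the KOStra8 animals, mice 1 to 3. This gave 0.254, 0.178 and 0.270 CPM against 0.315, 0.414 and 0.438 CPM, with all KOStra8 values above the HETStra8 values. The filter keeps a gene that exceeds 0.298 CPM in at least 3 libraries, which Nanos3 did through the KOStra8 mice alone, so that it could be tested only because it was higher there. Its log2 fold change of 0.72 had an SE of 0.582 and a 95% interval from −0.52 to 1.97 (edgeR adjusted p = 0.639), so that ratios between 0.696 and 3.92 stayed within the interval, and with offsets for GC and length it was 0.85. Nanos1, at 1.32 ± 0.506 against 1.33 ± 0.243 CPM (SD, n = 3 mice each), and Dnd1, whose protein works with NANOS2, at 3.01 ± 0.543 and 2.64 ± 0.359 CPM (SD, n = 3 each), had log2 differences of 0.01 and −0.18. Of 13 genes for the CCR4-NOT deadenylase and RNA-binding partners of NANOS proteins, Cnot7 and Pum2 had an unadjusted p below 0.05, with log2 fold changes of 0.24 and 0.19 (edgeR adjusted p = 0.315 and 0.397). That is 15.4% of the list, where 12.3% of all tested genes had such a p. Under the GC and length offsets 0 of the 13 had one, against 7.51% of all tested genes. The median of the list turned from 0.07 to −0.03.

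Lin28a (ENSMUSG00000050966, chromosome 4 from 134003330 to 134018841) drew 84, 134 and 152 reads in the HETStra8 and 124, 88 and 109 in the KOStra8 animals, mice 1 to 3. The HETStra8 mice spanned the whole range, from 2.67 CPM in mouse 1 to 4.56 CPM in mouse 3, and all 3 KOStra8 values of 2.98 to 3.55 CPM fell inside it. Its log2 fold change was −0.23 (95% interval −0.74 to 0.28, edgeR adjusted p = 0.734). It was −0.17 with offsets for GC and length, without HETStra8 mouse 1 it was −0.42 and without HETStra8 mouse 3 it was −0.05. The paralog Lin28b was at 9.92 ± 2.00 CPM against 13.5 ± 2.01 CPM in knockouts (SD, n = 3 mice each), a log2 difference of 0.44 (unadjusted p = 0.0179, edgeR adjusted p = 0.312) with overlapping groups. The count ratio of Lin28b to Lin28a was 3.17, 2.29 and 2.68 in HETStra8 and 3.25, 4.43 and 5.21 in KOStra8 mice 1 to 3, without overlap (two-sided exact permutation p = 0.1). It was chosen after values were seen, from a gene with a higher and a gene with a lower mean in KOStra8. Its p therefore adds nothing to the 2 log2 differences. Of 9 genes around LIN28 and let-7, 3 had an unadjusted p below 0.05, each with a higher mean in KOStra8, where 12.3% of all tested genes had such a p. Among the 9, 1 was higher and 1 lower with offsets for GC and length. The uridylyltransferase Tut4, which LIN28A recruits to let-7 precursors, had the smallest, with 64.9 ± 12.9 CPM against 87.1 ± 4.77 CPM (SD, n = 3 mice each) and a log2 difference of 0.43 (edgeR adjusted p = 0.220).

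Kit (ENSMUSG00000005672, chromosome 5 from 75574916 to 75656722) drew 920, 826 and 802 reads in the HETStra8 and 1061, 824 and 797 in the KOStra8 animals, mice 1 to 3. Levels were 29.2, 24.5 and 24.0 CPM against 30.3, 28.4 and 21.8 CPM, and KOStra8 mice again held both ends of the range. The log2 difference was 0.05 (95% interval −0.23 to 0.33, edgeR adjusted p = 0.906), 0.06 after the GC and length correction and −0.04 without KOStra8 mouse 1. GENCODE lists 8 transcripts of Kit, of which 2 code for protein, and counts per gene do not separate the full-length receptor from the truncated form known in spermatids. Leydig cells and mast cells also use KIT. The summed level of 7 Leydig cell markers lay between 534 and 812 CPM in HETStra8 and between 446 and 578 CPM in KOStra8 testes, whereas 6 mast cell markers summed to at most 0.690 CPM in any library, and Ms4a2 among them was at 0. The part of Leydig cells in the Kit value was not tested.

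Kitl, the ligand of KIT made by Sertoli cells, was at 14.8, 10.4 and 16.8 CPM in HETStra8 and 18.8, 15.6 and 24.9 CPM in KOStra8 mice 1 to 3. Its log2 fold change of 0.50 was the only one of 21 niche ligands and receptors with an unadjusted p below 0.05 (unadjusted p = 0.0331, edgeR adjusted p = 0.367), and HETStra8 mouse 3 lay above KOStra8 mouse 2. Over all tested genes 12.3% had such a p, and 7.51% with offsets for GC and length. With these offsets, or without HETStra8 mouse 1 or 2, 0 of the 21 had such a p, and without KOStra8 mouse 1 none was higher. The chemokine Cxcl12 and its receptor Cxcr4, another pair of the niche, had log2 differences of −0.30 and −0.38 (edgeR adjusted p = 0.467 and 0.661). The count ratio of Kit to Zbtb16 was 5.08, 5.62 and 4.77 in HETStra8 and 5.13, 5.42 and 3.85 in KOStra8 mice 1 to 3. Because spermatids and Leydig cells can add to the Kit counts, this ratio does not measure differentiating against undifferentiated cells. The groups overlapped (two-sided exact permutation p = 0.7, 3 mice per group).

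The precision behind these values differed by gene. For Id4 the mice of a group varied with a coefficient of variation of 4.21% in HETStra8 and 2.91% in KOStra8, close to the 2.92% that counting error alone gives at its mean count. For Kit it was 11.1% and 16.7% against 3.39% from counting, so that most of the spread lay between animals. Lin28a in HETStra8 mice, with 25.9%, Gfra1 in KOStra8 mice, with 25.5%, and Ret in KOStra8 mice, with 44.1%, varied at least as much, against counting errors of 9.32%, 8.66% and 12.5%. Nanos3 was limited by counting, with 31.1% expected from its mean of 10.3 counts and 21.0% and 16.8% observed. The summed level of all 10 genes lay close together, at 107.5, 96.9 and 97.9 CPM in HETStra8 and 103.7, 101.3 and 100.3 CPM in KOStra8 mice 1 to 3, a sum that Id4, Kit and Etv5 dominate.

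**Figure D4:**
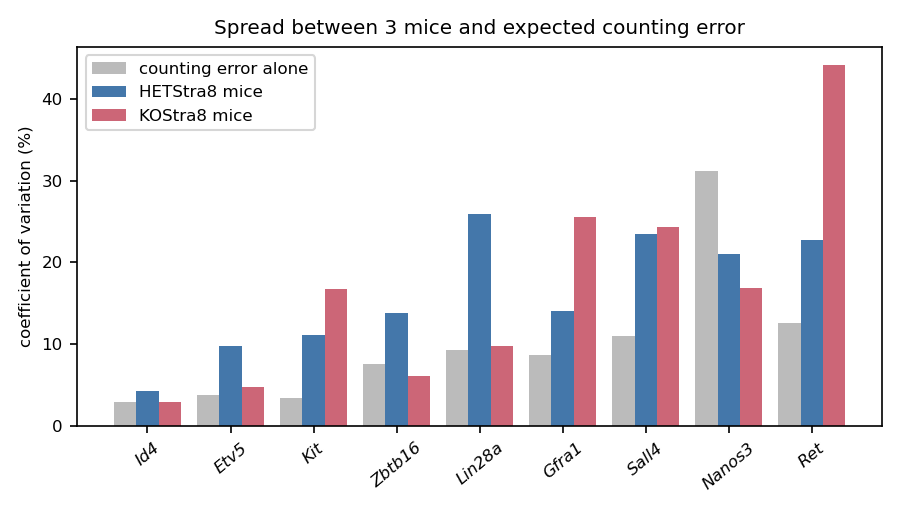
Coefficient of variation (%) of the normalized level between the 3 HETStra8 mice (blue) and the 3 KOStra8 mice (red) for each tested regulator, beside the value that counting error alone gives at its mean count (grey). The spread of Id4 is near its counting error, Ret in KOStra8 mice reaches 44.1%, and Nanos3 lies below its counting error.

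Of 28 other genes of undifferentiated spermatogonia 22 were tested, 9 with a higher and 13 with a lower mean in KOStra8, and the median log2 fold change was −0.08. The GC and length offsets turned this to 13 higher and 9 lower, with a median of 0.04. With these offsets 4 of the 22 had an unadjusted p below 0.05, where 7.51% of all tested genes did. Before this correction it was also 4 of the 22, or 18.2%, where 12.3% of all tested genes had such a p. The laminin receptor subunit Itga6 was at 13.2 ± 0.576 CPM against 17.6 ± 0.527 CPM in knockouts (SD, n = 3 mice each) without overlap, a log2 difference of 0.41 (edgeR adjusted p = 0.193), and Lin28b was the other gene with a higher mean. Of all tested genes 9.33% were higher in KOStra8 without overlap. Mcam and Plvap, which endothelial cells also express, had log2 differences of −0.39 and −0.99 (edgeR adjusted p = 0.334 and 0.380). The summed level of 6 endothelial markers lay between 39.3 and 56.9 CPM in HETStra8 and between 36.6 and 51.9 CPM in KOStra8 testes, and its part in these values was not tested. The transcription factors Foxo1 and Taf4b, both required for stem cell maintenance, had log2 differences of −0.29 and 0.09. Foxo1 was lower in all 3 KOStra8 mice, as were 8.43% of all tested genes, with an unadjusted p of 0.0524 (edgeR adjusted p = 0.411). Neurog3, a progenitor gene, had 23 counts in HETStra8 and 21 in KOStra8 testes over 3 mice each.

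Among 9 tested genes of differentiating spermatogonia 0 had an unadjusted p below 0.05. Sohlh1 and Sohlh2, transcription factors that turn on Kit, had log2 differences of −0.40 and 0.0089 (edgeR adjusted p = 0.561 and 0.987). Dmrt1, which controls the switch to meiosis, had −0.06, and Stra8, whose promoter drives the Cre, was at 11.0 ± 1.94 against 10.4 ± 0.371 CPM (SD, n = 3 mice each), a log2 difference of −0.07. For 16 genes that handle retinoic acid the mean was lower in KOStra8 in 15, with a median of −0.18 that moved to −0.04 with offsets for GC and length. With these offsets 12 were lower. Of the 16 genes 4 had an unadjusted p below 0.05, all lower, among them the retinol receptor Stra6, with a log2 value of −0.60 (edgeR adjusted p = 0.285). These 4 are 25.0% of the list, where 12.3% of all tested genes had such a p. With offsets for GC and length it was 2 of the 16, against 7.51% of all tested genes. With each mouse left out it was between 1 and 5 of the 16. Over all 11 pathway lists, 141 distinct genes were tested, 0 passed an adjusted p of 0.01 and 24 had an unadjusted p below 0.05, of which 13 were higher and 11 lower in KOStra8. That is 17.0% of the 141 genes, against 12.3% of all tested genes, but with offsets for GC and length the shares were 7.80% and 7.51%, and without KOStra8 mouse 3 they were 6.94% and 6.56%. In the list of 17 paralogs of the regulators, Lin28b and Gfra4 were the genes with an unadjusted p below 0.05.

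**Figure D5:**
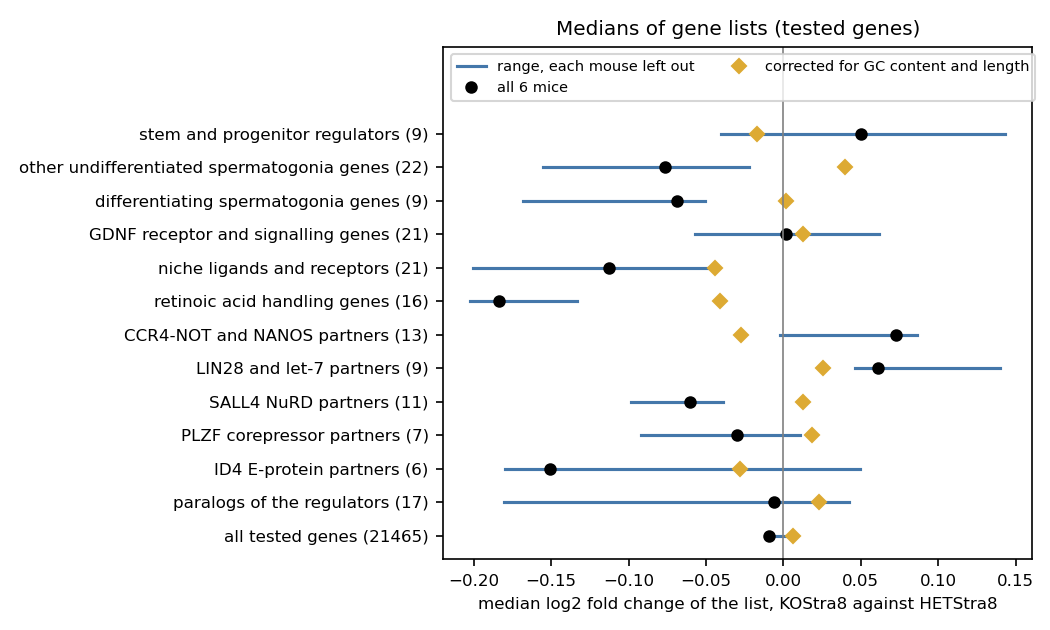
Median log2 fold change of each gene list in KOStra8 against HETStra8 testes with all 6 mice (black), corrected for GC content and length (yellow) and as a range with each mouse left out (blue line), with the number of tested genes in brackets. All medians with 6 mice lie between −0.18 and 0.07, and the correction brings the median of the retinoic acid list from −0.18 to −0.04.

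Markers of other cell types placed the samples as adult testis. Summed levels of elongating spermatid markers lay between 13884 and 15588 CPM and those of pachytene and diplotene spermatocytes between 6508 and 7088 CPM across the 6 libraries. Round spermatid markers summed to between 1043 and 1183 CPM. Those of leptotene and zygotene spermatocytes lay between 299 and 552 CPM in HETStra8 and between 598 and 619 CPM in KOStra8 testes, so that all 3 KOStra8 mice lay above the HETStra8 mice, whose own values were far apart. Of 8 such genes tested 0 had an unadjusted p below 0.05, but 4 did without HETStra8 mouse 3 (smallest edgeR adjusted p = 0.00062) and 2 with the mouse number as a block (0.043). Without HETStra8 mouse 3 the share over all tested genes also rose, from 12.3% to 20.2%, and with the block it was 12.3%. Under the GC and length offsets 4 of these 8 genes had higher and 4 lower means. Means were lower in KOStra8 testes for 10 of 10 tested Sertoli cell markers, 7 of 7 of Leydig cells, 6 of 6 of peritubular myoid cells and 6 of 7 of macrophages, with median log2 fold changes of −0.22, −0.30, −0.15 and −0.35. With offsets for GC and length these were −0.11, −0.24, −0.07 and −0.21, and the count for peritubular myoid cells was 3 of 6. Without HETStra8 mouse 1 the medians of the Sertoli, Leydig and peritubular myoid lists were −0.13, −0.09 and −0.017, and 3 of 7 Leydig markers had a higher mean. Endothelial markers divided into 3 higher and 3 lower, and Schwann cell markers into 3 higher and 1 lower. An unadjusted p below 0.05, always with a lower mean, was found for 4 of 10 Sertoli and 2 of 7 macrophage markers. For Leydig and peritubular myoid cells it was 1 of 7 and 1 of 6, where 12.3% of all tested genes had such a p. With offsets for GC and length these counts were 1, 0, 1 and 0, against 7.51% of all tested genes. Among these genes were Dhh and Clu of Sertoli cells (log2 fold changes −0.43 and −0.28), the steroidogenic Star (−0.65) and Des of myoid cells (−0.41). The macrophage genes were C1qb and Cd68 (−0.35 and −0.68). The adjusted p-values of the genes named here lay between 0.245 and 0.388 in edgeR's test. In spermatocytes and spermatids Mybl1 (0.45) and Gapdhs (−0.20) were the genes with an unadjusted p below 0.05, with edgeR adjusted p = 0.112 and 0.245. Schwann cell markers summed to between 13.4 and 18.8 CPM. The 7 epididymis markers summed to between 225 and 240 CPM in HETStra8 and between 206 and 232 CPM in KOStra8 testes. The highest value of a single gene among them was 195 CPM, and Lcn8 was at 0. A single gene thus made up most of this sum, which does not measure epididymis RNA in the samples. Of these 7 markers 2 were tested, both with lower means. Whether the somatic markers bear on the values of the regulators was not tested.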

How the data were processed

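For each mouse the authors deposited raw counts, the number of reads assigned to each of 55536 Ensembl genes, from poly(A)+ RNA made into directional libraries and read in paired ends. The submitters' processing notes name STAR 2.7.1a, featureCounts 1.6.0, HTSeq, StringTie 2.0.4, Picard 2.20.4 and the builds mm10 and GRCm38, without roles; the strand setting is not given in the sources used here. Symbols, positions and exon lengths came from GENCODE mouse M21 (GRCm38) and promoters from RefSeq on GRCm38.p6.

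The test was that of edgeR 4.0.16 under R 4.3.3 (TMM, filterByExpr, genotype alone in a robust quasi-likelihood model, two-sided F test, Benjamini-Hochberg adjustment over 21465 genes). CPM use TMM-scaled library totals. Intervals at 95% rest on the fit's working weights and posterior dispersion. For log2 CPM in exact permutation tests a prior count of 2 was used. The pathway and marker lists were read from the same fit and counted, with no set test. Alternatives were DESeq2 1.42.0, limma-voom (limma 3.58.1), DESeq2 size factors, library totals, no filter, at least 10 counts in every sample, loess offsets for GC content and exon length (span 0.3, genes above a log2 CPM of 2), the mouse number as a block, other cutoffs, and each mouse left out. Steps were tested on simulated data. The genes and lists were chosen with earlier results of these data known. Named beside the 10 regulators are set ligands and partners, and up to 2 genes per direction and list with the smallest unadjusted p below 0.05. The count ratios and the genes named as being at 0 were chosen after values were seen. Meiosin matched no gene under that symbol. A gene that the naming rule selects is not reported here.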

Additional observations from a re-analysis of the deposited data

How the results depend on the processing

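Across all alternatives run, 0 of the 10 regulators passed the study's cutoffs, an adjusted p of 0.05 or an unadjusted p of 0.05. Of 134 alternative log2 fold changes 127 kept their sign and 7 turned it. Id4 turned to −0.017 with GC and length offsets and to −0.015 with the replicate block and these offsets. With each mouse left out, Gfra1 lay between −0.021 and 0.30, Ret between −0.43 and 0.12 and Kit between −0.040 and 0.18. The number of genes past the cutoffs over all tested genes, 2, was 39 with no filter on low counts, 6 with DESeq2, 5 with the replicate block, 5 at an adjusted p of 0.05 and any fold, 82 at an unadjusted p of 0.01 and a fold of 2, and between 1 and 44 with each mouse left out, 44 without HETStra8 mouse 3. The number of pathway genes at an unadjusted p below 0.05, 24, was 11 with GC and length offsets, 12 with these and the replicate block, and between 10 and 34 with each mouse left out. The causes were not tested. Deviations of same-numbered mice of the 2 groups had correlations of −0.0601, −0.0525 and 0.108, and those of other pairs lay between −0.116 and 0.155. No pairing by number was seen, but with 3 mice per group this check cannot exclude shared litters or batches. The block changed no call of a regulator. Mean levels per length kept their order with the longest coding transcript and with shares per length, but Kit moved from 2.96 to 5.04 CPM per kb with the former and then overlapped Etv5. Depth limits Nanos2 and Nanos3 most, as their counts show. Nothing states that the mice came from separate litters. The p-values of edgeR rest on the spread between these animals alone, which the fit estimates in part across all tested genes.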

Other observations

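Among tested genes within a factor of 2 of its mean CPM, the gene whose pattern over the 6 libraries was nearest to that of each regulator was sought by the mean absolute difference of mean-centred log2 CPM. The nearest were Gm49336 for Id4 (0.0187), Timm17b for Etv5 (0.0218) and Hist2h2be for Kit (0.0245) among the well-counted regulators. For those with fewer counts they were Particl for Zbtb16 (0.0404), Gm44748 for Lin28a (0.0533), Slc25a18 for Gfra1 (0.0571), 4930524C18Rik for Ret (0.0711), Abcc4 for Sall4 (0.0811) and Gm14305 for Nanos3 (0.0917). Each was the closest of between 2459 and 4881 candidates over 6 libraries, which is a description of these libraries.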
